A study of Rattus norvegicus with 19 samples.

Results

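The cytochrome P450 genes on the array were examined in 6 normal mammary glands and 13 mammary carcinomas. Members were chosen by symbol: every gene called Cyp followed by a number, without Cyp51, to which an array probe was matched through its RefSeq accession. The symbol rule uses no measured level, but the family was singled out with its levels and detection in these same samples known, so the tests given are a description of these samples and not independent evidence about the family. The rule gave 78 probes for 67 genes, out of 30367 probes and 15168 genes with a symbol, while the rat RefSeq table lists 89 protein-coding genes and 13 pseudogenes with such symbols. Cyp19a1, Cyp2u1 and the other P450 genes without a matched probe were not analysed here. Of the 67 genes, 42 had a probe well above background on at least 6 arrays and were tested, and 25 did not.

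All samples came from female rats of an F1 cross between the Sprague-Dawley and Copenhagen strains, with RNA of each sample on 1 single-colour array. The carcinomas were labelled as radiation-induced, and the protocol gives whole-body gamma irradiation from caesium of 4 Gy at 0.5 Gy per minute at 7 weeks of age or no treatment. Which normal glands came from irradiated rats is not given in the labels, so the comparison is of tumour with gland and not of irradiated with unirradiated tissue. The normal gland is whole tissue that includes its fat, and neither age at sampling nor separate rats for the numbered samples are given, so p-values cover only the spread between these samples.

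Cytochrome P450 enzymes are haem proteins of the endoplasmic reticulum and mitochondria that insert an oxygen atom into a substrate, with electrons passed on by a reductase or a ferredoxin. Families with low numbers mostly oxidise drugs, solvents and combustion products, and are best known from liver. Others make or clear signalling lipids: steroid hormones, bile acids, vitamin D, retinoic acid and the oxygenated fatty acids. In the breast, members that act on oestrogens and on polycyclic hydrocarbons have been studied most, because their products can react with DNA.

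Values are log2 intensities relative to the 75th percentile of each array, so that 0 is the level below which 75% of the spots on that array lie. They compare samples for 1 gene and not 1 gene with another, since probes differ in brightness. A change is the mean of the carcinomas minus the mean of the normal glands on this scale, given ± SE from the limma fit (n = 13 and 6), and adjusted p is over all 12789 genes tested, with a threshold of 0.05. Carcinoma arrays were brighter, with a 75th percentile of 485 to 1428 intensity units against 295.5 to 673 in normal glands. Array brightness therefore moves with the group, and dim probes are detected further down in carcinomas. Among 698 probes with a symbol that were well above background on no array, the median change was -1.01, with the middle 90% between -1.29 and -0.51, so a change of about that size in a gene near background is what probes without measurable signal also showed. For genes well above background the median change over all genes tested was 0.01.

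The 3 P450 genes with the largest falls were Cyp2e1, Cyp11a1 and Cyp4b1, whose upstream sequences are shown because the results turn on them. Each run is the 250 bases before the RefSeq transcription start in assembly GRCr8, on the gene's own strand, with matches to AGGTCA (the short element bound by many nuclear receptors) and to TATAAA (the TATA box), or to their reverse complements, in capitals. Cyp2e1 lies on the forward strand (chr1:205269717-205269966), Cyp11a1 on the forward strand (chr8:67318415-67318664) and Cyp4b1 on the reverse strand (chr5:134393117-134393366).
Cyp2e1: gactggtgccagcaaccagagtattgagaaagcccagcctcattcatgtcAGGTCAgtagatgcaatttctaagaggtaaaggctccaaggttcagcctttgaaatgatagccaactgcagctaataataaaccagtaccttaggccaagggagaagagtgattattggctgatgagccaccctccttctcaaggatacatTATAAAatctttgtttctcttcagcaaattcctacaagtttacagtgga
Cyp11a1: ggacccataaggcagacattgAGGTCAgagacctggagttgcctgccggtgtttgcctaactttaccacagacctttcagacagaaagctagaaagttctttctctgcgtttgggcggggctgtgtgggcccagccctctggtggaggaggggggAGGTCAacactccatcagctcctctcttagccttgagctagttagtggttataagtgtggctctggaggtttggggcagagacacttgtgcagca
Cyp4b1: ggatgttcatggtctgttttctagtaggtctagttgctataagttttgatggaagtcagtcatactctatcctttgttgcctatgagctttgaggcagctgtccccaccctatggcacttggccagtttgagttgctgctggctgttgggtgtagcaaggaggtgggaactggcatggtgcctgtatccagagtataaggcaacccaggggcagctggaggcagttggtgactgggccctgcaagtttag
The Cyp2e1 window held 1 receptor element, beginning 200 bases before the start, and 1 TATA box, beginning 49 bases before it. The Cyp11a1 window held 2 receptor elements, at 229 and 95 bases, and no TATAAA. Neither set of letters was found in the Cyp4b1 window. Promoters were listed for 53 of the 67 genes. AGGTCA was found on either strand in 19 of them (35.8%), against 13.7% of 27457 rat promoters of the same length, and TATAAA in 17 (32.1%) against 13.1%. The aryl hydrocarbon receptor core GCGTG was found in 12 (22.6%) against 27.2%, and the site of steroidogenic factor 1, CAAGGTCA, which contains the receptor element, in 1, that of Cyp27a1 (1.89% against 1.30%). These are matches of letters and not binding sites. Some genes with a match are neighbours of the same subfamily, such as Cyp3a2 and Cyp3a23-3a1 for AGGTCA or Cyp2d5, Cyp2d1 and Cyp2d3 for TATAAA. The promoters counted are therefore not independent, and how alike they are was not tested.

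Detection differed widely within the family. The plot of detection shows, for each of the 67 genes, the share of arrays on which its probe was well above background. In all, 17 genes were well above background on all 19 arrays, among them Cyp4a8, Cyp4f6, Cyp4f5, Cyp2t1, Cyp20a1, Cyp2d1, Cyp2d5, Cyp2j4, Cyp26b1, Cyp21a1 and Cyp27a1. By contrast, 7 were well above background on none: Cyp1a1, the classical target of the aryl hydrocarbon receptor, Cyp7a1, the rate-limiting enzyme of bile acid synthesis, Cyp8b1, which sets the kind of bile acid made, Cyp11b1, which makes corticosterone, Cyp2c13, Cyp2c23 and Cyp4f4. Their changes of -1.18 to -0.61 (median -0.98) lay within the range of undetected probes given above. Cyp1a2, another target of that receptor, was well above background on 2 carcinoma arrays and 0 normal gland arrays. No P450 gene was detected throughout 1 group and nowhere in the other.

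Subfamilies of liver enzymes were mostly near background. The 5 genes of subfamily Cyp3a, the main drug-oxidising enzymes of liver, gave 0 of 30 values well above background in normal glands and 14 of 65 in carcinomas. The 7 genes of Cyp2c gave 3 of 42 and 26 of 91, and the 3 genes of Cyp2a gave 0 of 18 and 21 of 39. In Cyp2d the counts were 20 of 30 and 44 of 65, in Cyp4f 23 of 42 and 72 of 91, and in Cyp2j, which makes epoxides of arachidonic acid, 14 of 18 and 38 of 39. Over all 67 genes, 42.8% of values were well above background in normal glands and 57.9% in carcinomas. The higher share in carcinomas goes with their brighter arrays, on which the lowest level of a probe with every unmarked spot well above background was -6.81 to -4.61, against -5.57 to -4.55 in normal glands; the part of brightness in these counts was not tested.

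**Figure D1:**
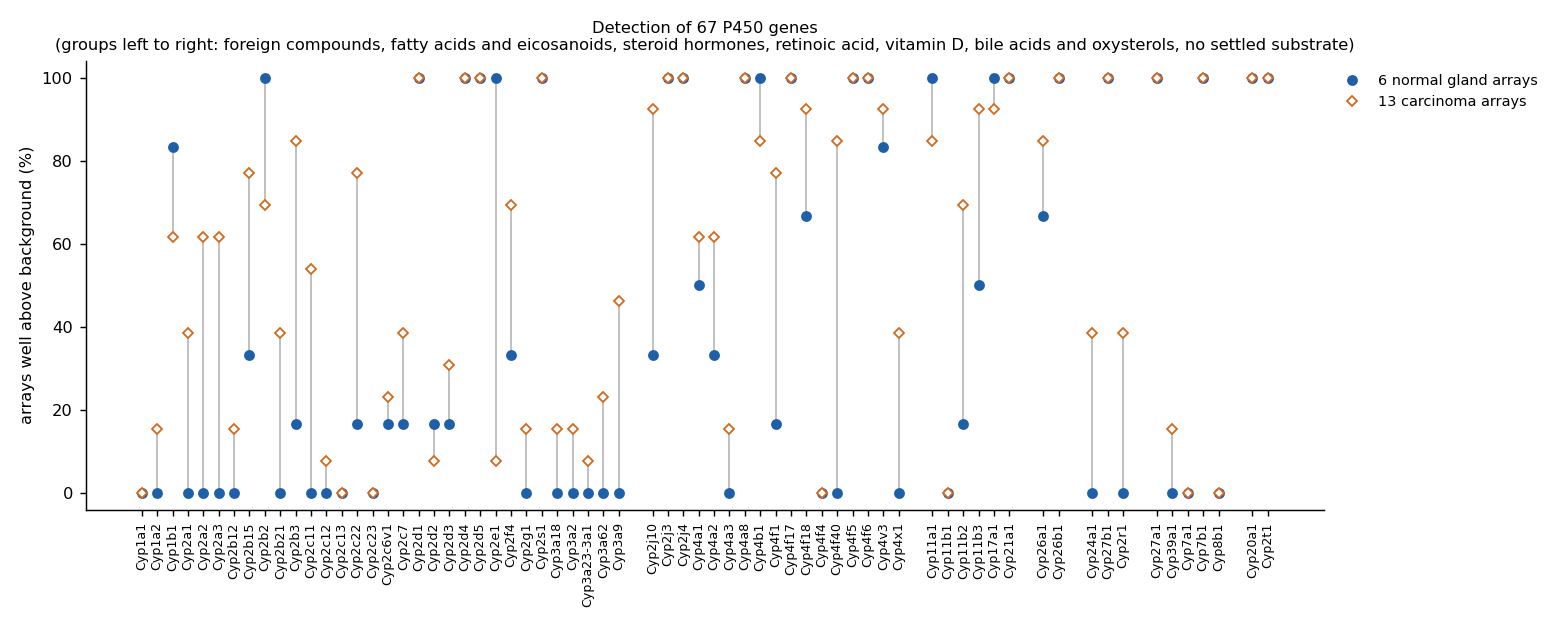
Percentage of arrays on which each of 67 P450 genes was well above background, in 6 normal glands (filled circles) and 13 carcinomas (open diamonds), grouped by substrate with the groups in the order of the title. Cyp2e1 falls from all 6 normal gland arrays to 1 of 13 carcinoma arrays, while most dim genes were detected on more carcinoma arrays than normal gland arrays.

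Carcinomas were set against normal glands to see how P450 expression in the tumours differs from that of the tissue they arise in. Of the 42 P450 genes tested, 9 were lower in carcinomas, 1 was higher and 32 did not pass the limma test. Over all genes tested, 13.2% were lower and 9.73% higher. In 5 of the 42 genes every carcinoma lay below every normal gland, against 1.93% of all genes, and in 0 every carcinoma lay above, against 0.54%. The median change of the 42 genes was -0.33, and that of the 17 detected on every array was -0.44. With normexp background correction the split of calls moved, to 5256 lower and 928 higher over all genes and 31 lower and 0 higher among the P450 genes, with median changes of -0.37 over all genes and -0.80 over the P450 genes. With quantile normalization the split was 1416 lower and 1568 higher over all genes and 8 lower and 1 higher among the P450 genes. With array brightness as a covariate Cyp2e1, Cyp11a1 and Cyp4b1 kept their calls, and the other 7 genes, Cyp2b2, Cyp2b3, Cyp2d1, Cyp2d4, Cyp4a1, Cyp21a1 and Cyp26b1, did not pass in their direction. Cyp2b2 and Cyp2d4 also missed the threshold within each of the 3 slides, which hold fewer samples.

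**Figure D2:**
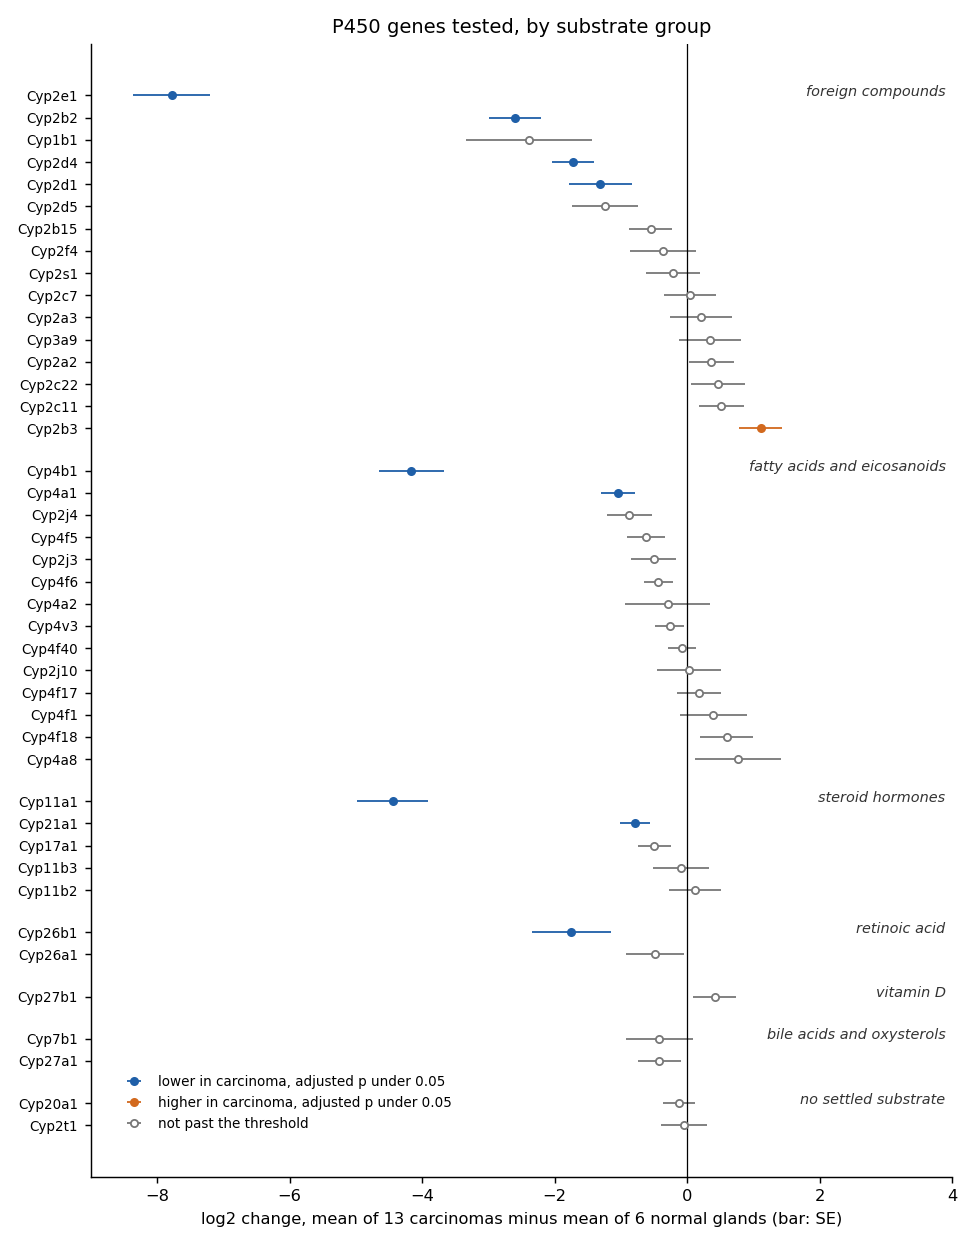
Change in log2 level, mean of 13 carcinomas minus mean of 6 normal glands, with SE, for the 42 P450 genes tested, grouped by substrate; filled marks passed the threshold. Cyp2e1, Cyp11a1 and Cyp4b1 stand apart at -7.78, -4.44 and -4.16, and Cyp2b3 is the filled mark to the right of 0.

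Among the enzymes of foreign compounds, 32 genes of which 16 were tested, 4 fell and 1 rose. Cyp2e1, which oxidises ethanol, acetone and small solvents, ranged from -1.86 in normal gland 6 to 3.90 in gland 2, with a median of 1.05, and in carcinomas from -8.86 to -5.93 with a median of -6.74. All carcinomas lay far below all glands. Its change of -7.78 ± 0.58 (adjusted p = 6.82e-09) corresponds to 220-fold on the measured means, but the probe was well above background on carcinoma array 1 alone, so the size rests on values near background. With normexp the change was -4.65. Within slides 1, 2 and 3 it was -8.06, -7.59 and -5.81, with adjusted p of 0.00449, 0.00146 and 0.0763, the last from a slide with 1 normal gland, which is assumed to vary like the other samples.

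Cyp2b2, an enzyme induced by phenobarbital in liver, had levels of -4.70 to -2.25 in the glands (median -3.57) and -7.51 to -5.10 in the tumours (median -6.23), without overlap. It fell by 2.60 ± 0.40 on the log2 scale (adjusted p = 1.48e-04). A further probe of the gene gave -0.35 ± 0.37 and did not pass, so its probes disagree. Cyp2b3, its neighbour on the chromosome, was the single P450 gene that rose, from a median of -6.35 (range -6.99 to -5.01) to -5.30 (range -6.65 to -4.13), with a change of 1.11 ± 0.33 (adjusted p = 0.0207). It was well above background on 1 of 6 normal gland arrays and 11 of 13 carcinoma arrays. The groups overlapped, through gland 1 and carcinoma 3. Its other probe gave -0.80 ± 0.37 (adjusted p over probes 0.132), the change turned to -0.57 with normexp, and the call was lost with the median of its probes and without normal gland 2 or 3 (largest adjusted p 0.0696), so the call rests on 1 dim probe.

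The Cyp2d genes lie next to each other, in the order Cyp2d4, Cyp2d5, Cyp2d1, Cyp2d3 and Cyp2d2, and 3 of the 5 were tested. Cyp2d4, the form best known from brain, was at -3.32 to -1.50 in the glands (median -2.80) and -5.46 to -3.40 in the tumours (median -4.43). All 13 carcinomas lay below all 6 glands, and the fall was -1.72 ± 0.31 (adjusted p = 8.12e-04). Cyp2d1, which oxidises many basic drugs, was at -1.88 to 0.97 in the glands (median 0.37) and -3.18 to -0.034 in the tumours (median -1.21). Glands 1 and 6 lay among the carcinomas. Its change of -1.31 ± 0.47 passed narrowly (adjusted p = 0.0497) and kept its call in 5 of 16 alternative settings. The call was lost without any 1 of 13 different arrays, and the sign turned within slide 3 (0.33) and with array brightness as a covariate (0.037). Cyp2d5, at -1.24 ± 0.50 (adjusted p = 0.0764), followed Cyp2d1 to within 0.207 on every array, so probes of these near-identical paralogues may read the same transcripts and cannot be counted as separate evidence.

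Cyp1b1, which hydroxylates oestradiol and polycyclic hydrocarbons, had the widest spread of the 42 genes within both groups, with an SD of 2.76 in normal glands and 1.77 in carcinomas. Its levels were -6.37 to 1.23 in the glands (median -4.08) and -8.11 to -2.75 in the tumours (median -6.30). The groups overlapped, and the change of -2.39 ± 0.95 did not pass (adjusted p = 0.076). It passed without normal gland 4, the lowest of the glands, with normexp (-1.75) and with slide or scan day as a term. Without normal gland 6, the highest, the change was -1.52 (adjusted p = 0.225), and in the 15 samples with a number in the code of their description it was -1.19 (adjusted p = 0.353). Cyp2s1, an epithelial enzyme that acts on retinoids and hydrocarbons, was at -2.74 to -0.69 in normal glands and -3.03 to -0.68 in carcinomas, a change of -0.22 ± 0.40 (adjusted p = 0.746). Another of its 3 probes gave -0.89 ± 0.28 and passed (adjusted p over probes 0.025), while the third gave -0.18. The remaining tested genes of this group, 8 in all, had changes between -0.55 (Cyp2b15) and 0.52 (Cyp2c11), and none passed.

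**Figure D3:**
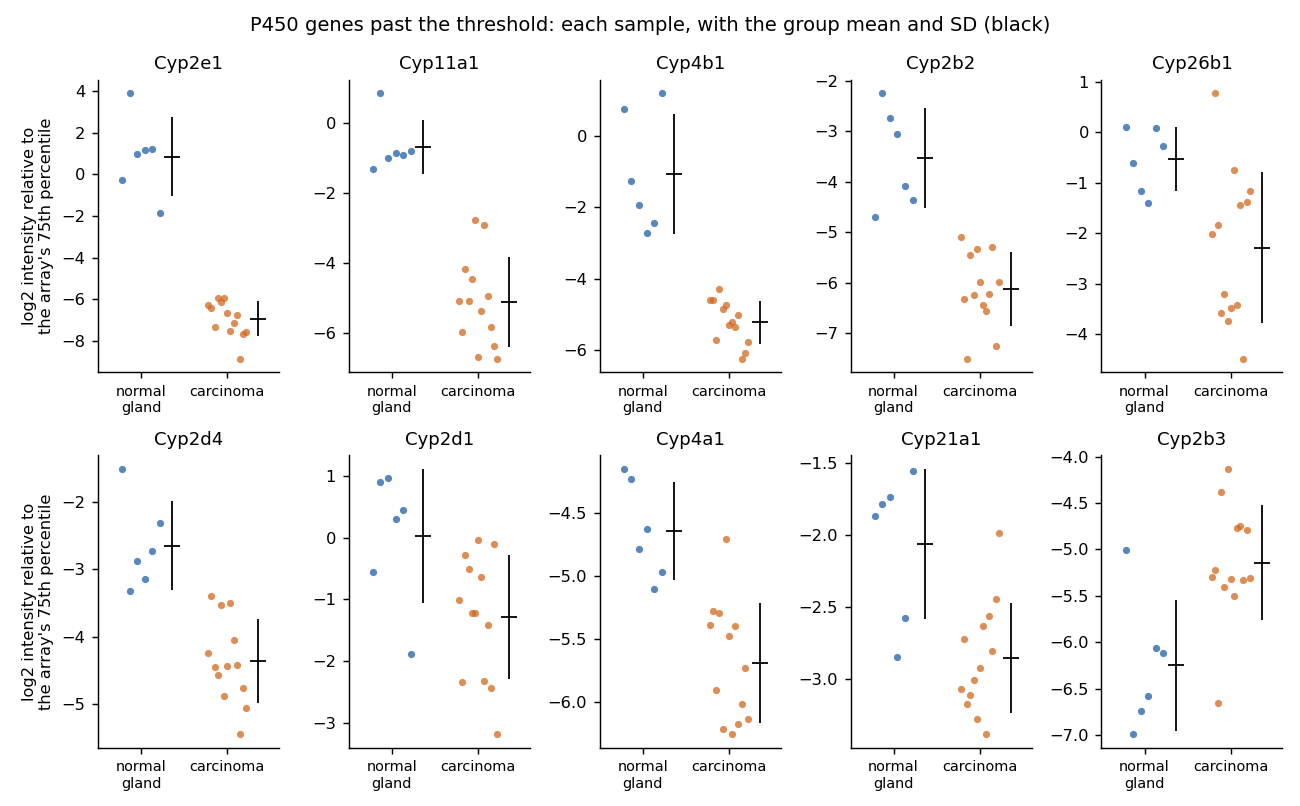
Level of the 10 P450 genes that passed the threshold in each of 6 normal glands (blue) and 13 carcinomas (orange), with the group mean and SD in black; the vertical axes are log2 intensity relative to the array's 75th percentile and differ between panels. In Cyp2e1, Cyp11a1, Cyp4b1, Cyp2b2 and Cyp2d4 the groups do not overlap.

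Enzymes of fatty acids and eicosanoids numbered 17, of which 14 were tested, 2 fell and 0 rose. Cyp4b1, which oxidises medium-chain fatty acids and activates some protoxins, was at -2.73 to 1.22 in the glands (median -1.59) and -6.26 to -4.31 in the tumours (median -5.23). No carcinoma reached the lowest gland. The fall was -4.16 ± 0.49 (adjusted p = 5.96e-06), or 17.9-fold, and it passed in all 16 alternative settings and without any single array, with values from -6.90 within slide 3 to -2.34 within slide 2. Carcinomas 7 and 13 were not well above background. Their arrays had the lowest shares of spots well above background among the carcinomas, 62.3% and 72.0%. Carcinoma 7, at -5.29, lay above carcinomas 11 and 12, which were detected at -6.26 and -6.10.

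Next to Cyp4b1 on the chromosome stand Cyp4a1, Cyp4a3, Cyp4a2, Cyp4a8 and Cyp4x1, which with Cyp4b1 form 1 cluster. Cyp4a1, a fatty acid hydroxylase known as a target of the receptor Ppara, was at -5.11 to -4.15 in the glands (median -4.70) and -6.26 to -4.71 in the tumours (median -5.73), with overlap through carcinoma 6. It fell by 1.05 ± 0.26 (adjusted p = 0.00676), but the probe was well above background on 3 normal gland and 8 carcinoma arrays, and the size lies within the range of undetected probes. Within slides 1, 2 and 3 the change was -1.31, -0.35 and -1.09 and did not pass. Cyp4a8, at -0.18 to 4.84 in the glands (median 1.41) and 1.23 to 5.43 in the tumours (median 1.84), gave a change of 0.77 ± 0.65 (adjusted p = 0.427). Its other probe was dim and gave -0.09 ± 0.46.

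The Cyp4f genes, whose enzymes inactivate leukotrienes, showed no call among the 6 tested. Cyp4f6 was at 1.74 to 2.27 in normal glands and 0.70 to 2.32 in carcinomas, a change of -0.44 ± 0.22 (adjusted p = 0.163), and Cyp4f5 gave -0.63 ± 0.29 (adjusted p = 0.123). Cyp4v3, which hydroxylates medium-chain fatty acids and is known from the retina, gave -0.26 ± 0.22 (adjusted p = 0.42), and its other probe -0.76 ± 0.28 (adjusted p over probes 0.0568). Cyp2j4, an arachidonic acid epoxygenase, missed the threshold at -0.87 ± 0.34 (adjusted p = 0.0718), with its 2 probes in the same direction. The lowest carcinomas for Cyp2j4 were 1 and 5, at -2.23 and -2.10, against -0.66 to 0.08 in glands. The groups overlapped: carcinomas 3 and 4, at -0.14 and -0.27, lay among the glands, and carcinoma 11, at 0.61, above them all.

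Steroid hormone enzymes numbered 6, of which 5 were tested, 2 fell and 0 rose. Cyp11a1, the mitochondrial enzyme that cuts the side chain of cholesterol and opens steroid synthesis, was at -1.33 to 0.86 in the glands (median -0.88) and -6.75 to -2.77 in the tumours (median -5.11). Carcinomas 6 and 9 came nearest to the glands, at -2.77 and -2.91, and none overlapped. Carcinomas 7 and 13, at -6.71 and -6.75, were not well above background. The fall was -4.44 ± 0.54 (adjusted p = 8.65e-06), or 21.7-fold, was -2.85 with normexp, and passed without any single array. Within slides 1, 2 and 3 it was -4.44, -3.48 and -5.06, with adjusted p of 0.0123, 0.128 and 0.0763. Cyp21a1, which hydroxylates progesterone on the way to adrenal steroids, was at -2.84 to -1.55 in the glands (median -1.83) and -3.38 to -1.99 in the tumours (median -2.92), and fell by 0.79 ± 0.23 (adjusted p = 0.0163). Glands 4 and 5 lay among the carcinomas, and the call was lost without gland 3 (adjusted p = 0.0518). Cyp17a1, which makes androgens from pregnenolone and progesterone, gave -0.50 ± 0.25 (adjusted p = 0.155), and the adrenal genes Cyp11b2 and Cyp11b3 gave 0.11 and -0.09.

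The 2 genes with a matched probe that clear retinoic acid were tested, and 1 fell. Cyp26c1 had no matched probe. Cyp26b1 was at -1.40 to 0.10 in the glands (median -0.44) and -4.49 to 0.77 in the tumours (median -2.02). Carcinoma 2 lay above every gland, and carcinomas 4, 5, 6, 7, 9 and 11 lay at -3.21 or below, with the other carcinomas at -2.02 or above. The change was -1.75 ± 0.59 (adjusted p = 0.0386), and it was lost in 6 of 16 alternative settings and without any 1 of 10 different arrays. Cyp26a1, the other gene measured, was well above background on 4 normal gland and 11 carcinoma arrays and gave -0.48 ± 0.44 (adjusted p = 0.458).

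Of the vitamin D enzymes only Cyp27b1, which makes the active hormone, was tested, with -4.67 to -3.03 in normal glands, -4.64 to -1.99 in carcinomas and a change of 0.41 ± 0.33 (adjusted p = 0.388). Cyp24a1, which degrades the hormone, was well above background on carcinoma arrays 4, 6, 8, 10 and 12 and on no normal gland array. Its highest value was -4.91 in carcinoma 4, but its change was -0.05. Carcinoma 12 counted as detected at -7.21, within the range of the glands, -7.23 to -6.67. Cyp2r1, which makes the circulating precursor, was detected on 5 carcinoma arrays and no normal gland array, with a change of -0.05. The part of array brightness in the detection of these genes was not tested. Of the bile acid and oxysterol enzymes, Cyp27a1, a mitochondrial sterol hydroxylase, gave -0.42 ± 0.32 (adjusted p = 0.378) and Cyp7b1, which clears oxysterols, gave -0.42 ± 0.50 (adjusted p = 0.587). Cyp7b1 spread from -4.22 in carcinoma 7 to -0.10 in carcinoma 2, on either side of the glands at -3.07 to -1.95. Cyp20a1 and Cyp2t1, whose substrates are not settled, were detected on every array and gave -0.13 ± 0.24 and -0.04 ± 0.34 (adjusted p = 0.747 and 0.946).

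Some dim members stood out in single samples. Cyp2c6v1, a liver enzyme, was at -3.14 in normal gland 2 and -2.73 in carcinoma 12, while the other samples lay between -8.91 and -5.14. Cyp3a23-3a1, an inducible drug-oxidising enzyme, was at -4.36 in carcinoma 7 and at -6.56 or below elsewhere. Cyp4f1 was at -2.74 in carcinoma 2 and -4.28 in carcinoma 4, with glands between -6.34 and -5.64. These are single values without a replicate.

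The normal glands differed among themselves in several P450 genes. Cyp4b1 was at 0.77 and 1.22 in glands 1 and 6 and at -2.73 to -1.26 in the other 4. Cyp1b1 was likewise at -0.91 and 1.23 in glands 1 and 6 and at -6.37 to -3.83 in the others. Cyp2e1 and Cyp2d1 had the opposite order. Cyp2e1 was at -0.27 and -1.86 in glands 1 and 6 and at 0.95 to 3.90 in the others, and Cyp2d1 at -0.55 and -1.88 against 0.30 to 0.97. Cyp11a1 did not follow this split: gland 2, at 0.86, stood above the other 5 at -1.33 to -0.81, and gland 2 was also the highest in Cyp2e1. The summed level of 11 adipocyte markers, in multiples of the array's 75th percentile, was 364 and 513 in glands 1 and 6, 675 in gland 2 and 267 to 365 in glands 3, 4 and 5. Such a sum leans on the brightest probe, that of Cfd, at 7.38 to 8.93 in the glands on the log2 scale. The glands were set apart here by their values, so no test was made. Gland 6 is the single gland on slide 3 and the single gland with a letter code. Gland 1 had the brightest normal gland array, with a 75th percentile of 673 intensity units against 295.5 to 468 in the others. The part of brightness in this split was not tested.

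**Figure D4:**
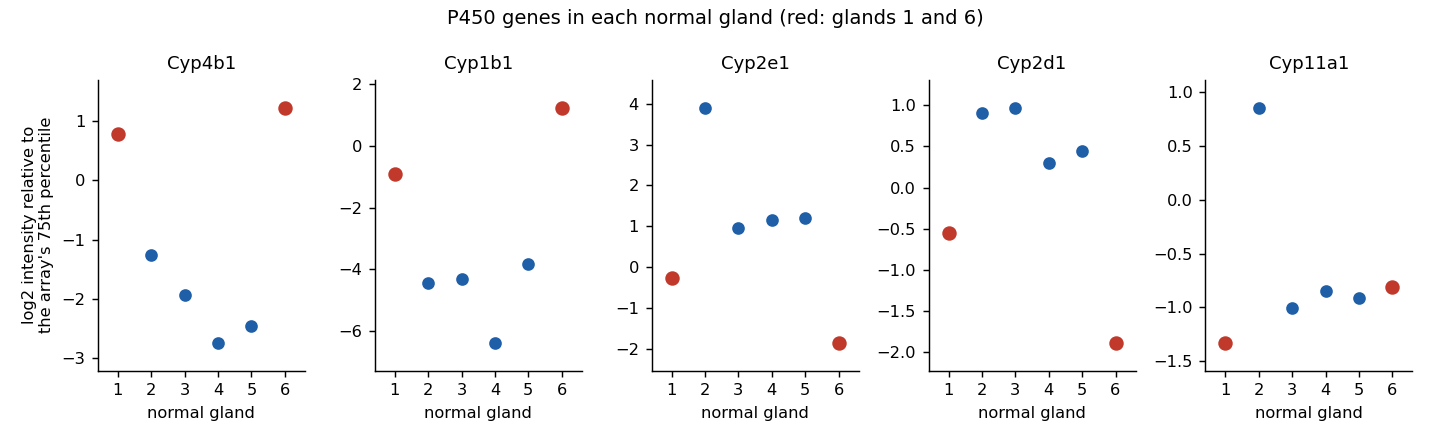
Level of 5 P450 genes in each of the 6 normal glands, as log2 intensity relative to the array's 75th percentile, with glands 1 and 6 in red; axes differ between panels. Cyp4b1 and Cyp1b1 were highest in glands 1 and 6, Cyp2e1 and Cyp2d1 were lowest there, and Cyp11a1 stood out in gland 2 alone.

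Markers of other cell types moved with the group. Of 11 adipocyte markers tested 10 fell, with a median change of -4.22, and their summed level was 267 to 675 in normal glands and 3.36 to 15.2 in carcinomas. On carcinoma arrays Adipoq was detected on 8 of 13, Cidec on 10 and Lep on 4, and the other 8 markers were detected on all 13. All 5 endothelial markers fell, from a summed level of 6.22 to 20.6 to one of 1.60 to 4.72. Among luminal epithelial markers 2 of 8 rose, and among basal ones 0 of 5 passed. Of the macrophage markers 3 of 6 fell, and of the fibroblast markers 2 of 6. Of 5 hepatocyte markers only Alb passed, with a fall of -6.66 ± 0.39, and it was detected in all 6 normal glands and 1 carcinoma. Serpina1 was detected in 6 normal glands and 12 carcinomas, with a change of 0.39 ± 0.72. Fgb was detected in 2 and 4, with a change of -0.92 ± 1.43 and a highest carcinoma value of 2.57. Apoa1 and Ttr were detected in 0 normal glands and in 6 and 8 carcinomas. In whole tissue, fewer cells of a type and less RNA per cell cannot be told apart, and the part of the fat and vessel content in the falls of the P450 genes was not tested.

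Pathway genes around the family came from a list of 122, including redox partners, haem enzymes, receptors, other oxidases, and conjugating, steroid and sterol enzymes. Of these 106 were tested, 28 fell and 2 rose. Over all genes tested, 13.2% were lower and 9.73% higher, shares that serve also for the parts of the list below. With array brightness as a covariate 8 pathway genes were lower and 0 higher, against 174 and 11 of 12789 over all genes. Of the pathway genes given with values, Fmo1, Fmo2, Sult1a1, Rxrg, Nr1h3 and Sts kept their calls with that covariate. Of 12 redox partners 2 fell, 0 rose and 10 did not pass. Por, which hands electrons to the P450 enzymes of the endoplasmic reticulum, gave 0.04 ± 0.28 (adjusted p = 0.942). Pgrmc2, a haem-binding partner, fell by 0.68 ± 0.16 (adjusted p = 0.00456) and Fdx2, a mitochondrial ferredoxin, by 0.56 ± 0.18 (adjusted p = 0.0319). The Fdx2 call was kept in 9 of 16 alternative settings and was lost without any 1 of normal glands 1, 2, 3 and 4 (largest adjusted p 0.114). Of 13 genes of haem synthesis and breakdown 3 fell, led by Alas2, the red cell form of the first enzyme, at -2.83 ± 0.59 (adjusted p = 0.00232), and Urod, at -0.72 ± 0.22 (adjusted p = 0.0234). The Urod call was likewise kept in 9 of 16 settings, was lost without normal gland 2, 3 or 4 (largest adjusted p 0.0873), and its change with array brightness as a covariate was -0.0056. The 2 P450 genes without a Cyp symbol both fell: Ptgis, prostacyclin synthase, by 2.02 ± 0.55 (adjusted p = 0.0128) and Tbxas1, thromboxane synthase, by 1.94 ± 0.40 (adjusted p = 0.00219).

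Of 10 other oxidases of foreign compounds 6 fell and 0 rose. Fmo2 and Fmo1, flavin-containing monooxygenases, gave -5.60 ± 0.45 and -5.40 ± 0.48. Both were well above background on 6 normal gland arrays, and on 9 and 11 of 13 carcinoma arrays. Among 27 enzymes of epoxide hydrolysis and conjugation 7 fell and 0 rose. Sult1a1, a phenol sulphotransferase, fell by 4.40 ± 0.41 and Mgst1, a membrane glutathione transferase, by 2.20 ± 0.34, while the change of Ephx1, the microsomal epoxide hydrolase, was -1.61 ± 0.29. Ephx2, the soluble hydrolase of fatty acid epoxides, gave 0.04 ± 0.74 and was dim. In each of these 5 genes named as falling, adjusted p was at most 7.40e-04.

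Of 18 receptors that control P450 genes 4 fell and 1 rose. Rxrg, a retinoid X receptor, fell by 5.39 ± 0.37 and Nr1h3, the oxysterol receptor, by 2.52 ± 0.19, while Rarg, a retinoic acid receptor, rose by 0.77 ± 0.20 (adjusted p = 0.00956). Ahr, the receptor that switches on Cyp1a1 and Cyp1b1, gave -0.37 ± 0.26 (adjusted p = 0.318). Of 18 genes of steroid hormone synthesis and conversion 3 fell and 1 rose. Sts, which frees steroids from their sulphates, fell by 1.38 ± 0.23 and Hsd17b1, which makes oestradiol from oestrone, by 0.98 ± 0.27 (adjusted p = 0.0135), whereas Hsd17b7 rose by 1.10 ± 0.35 (adjusted p = 0.0287). The Hsd17b7 call was lost with normexp (0.18), within slides 2 and 3, and without normal gland 2 or 3 (largest adjusted p 0.108), and that of Hsd17b1 within each slide and without normal gland 3 (adjusted p = 0.0537). Scp2, a sterol carrier and thiolase, fell by 0.97 ± 0.18 and was the 1 of 6 other bile acid and oxysterol genes to pass.

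A further split ran through both groups. Normal gland 6 and carcinomas 11, 12 and 13 carry a letter in the code of their description, and the other 15 samples a number. Cyp4a8 was at 4.03 to 5.43 in the 4 letter-coded samples and at -0.18 to 2.90 in the number-coded ones, without overlap. The comparison was added after the data were seen and has the group as a further term. Cyp4a8 was higher in letter-coded samples by 3.05 ± 0.34 (adjusted p = 3.22e-05), and Cyp4a2, next to it on the chromosome, by 2.52 ± 0.49 (adjusted p = 0.0016). Cyp4f18 (1.26 ± 0.37), Cyp27b1 (1.18 ± 0.27), Cyp2c11 (0.93 ± 0.32) and Cyp4f6 (0.66 ± 0.21) were also higher, 6 of 42 genes in all against 6.78% of all genes tested. The 4 genes that were lower, against 13.3% of all genes, were Cyp2e1 (-1.90 ± 0.52), Cyp2f4 (-1.74 ± 0.43), Cyp2a3 (-1.42 ± 0.45) and Cyp20a1 (-0.77 ± 0.22). Cyp2f4 and Cyp2a3 were well above background on no letter-coded array, and Cyp2e1 on none of carcinoma arrays 11, 12 and 13. Cyp2c11, among the higher genes, was well above background on no normal gland array. These changes rest in part on values near background, and the part of array brightness in them was not tested. All letter-coded samples lay on slide 3, where the number-coded carcinomas 8 and 10 had Cyp4a8 at 2.90 and 2.05. The other probe of Cyp4a8, well above background on 1 normal gland and 6 carcinoma arrays, did not show the split. It was at -7.38 to -6.37 in letter-coded samples, within its range of -8.23 to -4.67 in number-coded ones, so the difference rests on 1 probe. What the codes stand for is not given in the labels.

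**Figure D5:**
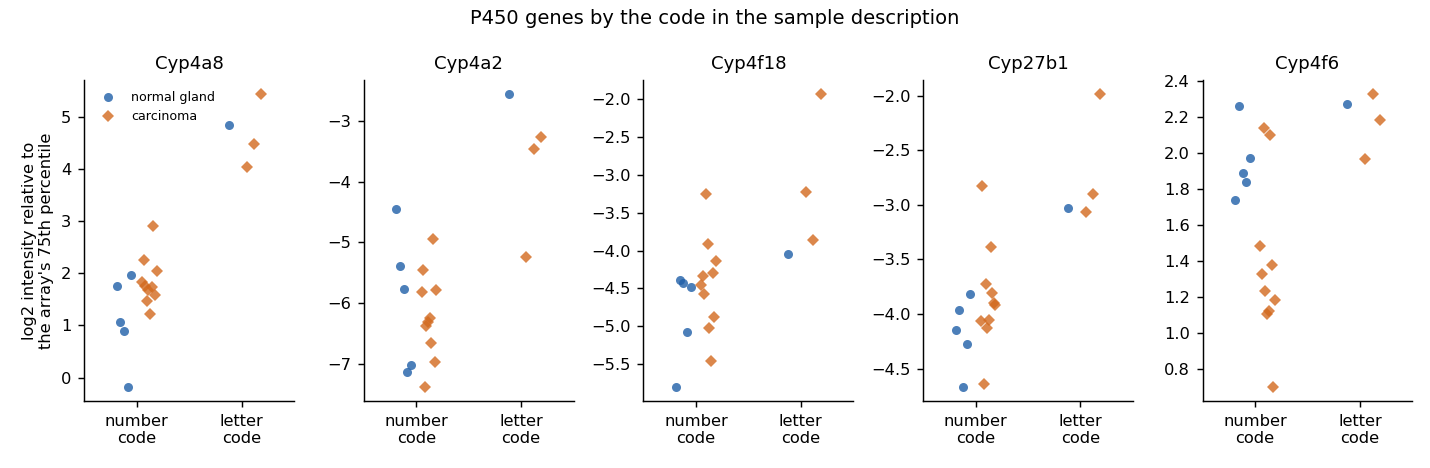
Level of 5 P450 genes, as log2 intensity relative to the array's 75th percentile, in the 15 number-coded and 4 letter-coded samples, with normal glands as blue circles and carcinomas as orange diamonds. The letter-coded normal gland lies with the letter-coded carcinomas in Cyp4a8, at 4.84 against 4.03 to 5.43.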

How the data were processed

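Scanner files of 19 single-colour (Cy3) Agilent arrays were deposited, 1 per sample; the submitters' processing notes give the scanner software as Agilent Feature Extraction 10.7.3.1. The deposited files hold, per their own headers, background-subtracted, detrended spot intensity, median pixel signals, and flags. The authors deposited a log2 table as well, used as an alternative. Of 58717 spots per array, 403 to 1069 were marked uneven or deviating and set missing, and 0 were saturated. The log2 intensity minus the array's 75th percentile was averaged over the spots of a probe. Probes were named through RefSeq accessions without version, in the current rat table. A probe counted as detected where 0.5 or more of its unmarked spots were flagged well above background, and was kept with at least 6 such arrays; the brightest kept probe stood for a gene. Groups came from the sample titles. They were compared with limma 3.58.1 (lmFit, eBayes with trend) in R 4.3.3, 2-sided, with Benjamini-Hochberg adjustment over 12789 genes and a threshold of 0.05; tables and plots used Python 3.11.15 with pandas 2.3.3 and matplotlib 3.10.9. The fit was tested on simulated data.

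Each of the 3 slides carried both groups, and slide 2 was scanned on another day. Carcinoma arrays 4, 6 and 13 were marked for evaluation by the scanner software. The files hold no mean spot signal, so normexp (offset 50) used the median pixel signal. Named P450 genes were all that passed, the 2 brightest tested genes of each substrate group and a set list. Named pathway genes were, of each pathway list, the 2 largest changes past the threshold per direction, and 6 set genes. Other genes named were chosen after their values were seen. Members and lists were chosen with earlier results of these data known. Same-numbered samples were not taken as pairs in the main fit, since the labels do not state pairing. Their correlations after removing group means were 0.24, 0.00, 0.06, -0.00, -0.10 and -0.12. For gland 1 the best match was carcinoma 1. These correlations cannot tell whether a gland and a tumour came from the same rat. The number of arrays limits the precision.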

Additional observations from a re-analysis of the deposited data

Results flagged for a closer look

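Among the 25 P450 genes named by rule, 1 had a normal gland apart from the other 5 by Dixon's criterion at the 95% level: Cyp11a1 in normal gland 2, at 0.857, against -1.33 to -0.806 in the other glands. The gap was 0.761 of the whole range. Chance flags about 1 in 20 such groups, and the 13 carcinomas are too many for this criterion.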

How the results depend on the processing

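Alternative settings changed the counts more than the leading genes. P450 genes higher in carcinomas numbered 0 with normexp, the median of a gene's probes, the replicate block, array brightness as a covariate, within slides 1, 2 and 3, and without the 3 arrays marked for evaluation; leaving out single arrays gave 0 to 1, with 0 without normal gland 2 or 3. P450 genes lower in carcinomas numbered 31 with normexp, 14 with no filter on dim probes (67 genes tested), 3 with brightness, 6 with the replicate block, 4, 3 and 1 within slides 1, 2 and 3, and 6 to 10 without single arrays. Over all genes, 11 were higher and 174 lower with brightness, 153 and 534 within slide 1, 45 and 267 within slide 2, 0 and 31 within slide 3, 5256 were lower with normexp, and single arrays gave 664 to 1440 higher and 1087 to 1830 lower, the fewest without normal gland 3; without gland 2 they were 698 and 1122. Pathway genes higher and lower were 1 and 56 with normexp, 0 and 8 with brightness, 1 and 11 within slide 1 and 0 and 9 within slide 2. Without single arrays 1 to 3 were higher. The replicate block, which takes same-numbered samples as pairs although the labels do not state this, gave 971 higher and 1342 lower. Slides hold fewer samples, and slide 3 has 1 normal gland; the cause of the other shifts was not tested.

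Signs turned for Cyp2b3 (-0.57) and Ephx2 (-0.70) with normexp, for Cyp2d1 with brightness (0.037) and within slide 3 (0.33), and for Fdx2 within slide 3 (0.099). Uncalled changes of 11 named genes, Ephx2, Por and Cyp2t1 most often, took the other sign in 47 gene and setting pairs without passing. Cyp4b1 passed in all 16 settings, Cyp11a1 in 14 (not within slides 2 and 3) and Cyp2e1 in 14 of 15 (not within slide 3), and all 3 without any single array. The setting missing for Cyp2e1 was a filter of 10 arrays in place of 6, which removed this gene. Its probe counted as detected in all 6 glands but in only 1 carcinoma, so its place among the tested genes rests on the glands. Signal over background limits the family: 25 of 67 genes were below the filter of 6 arrays.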
